A study of Mus musculus with 12 samples.

Results

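Histones are the proteins around which DNA is wound, and their genes were followed here in mouse liver RNA at 3, 12 and 18 months of age. The members were the protein-coding genes of the GENCODE M21 annotation whose symbol begins with Hist1h, Hist2h, Hist3h or Hist4h, with H2af, with H3f3 or with H1f, and which had at least 1 count in at least 1 liver. Of 82 such annotated genes, 29 were at 0 in every liver and 53 were members, out of 28449 genes counted in all. The 43 members of the numbered clusters are called replication-dependent, and the other 10 are called variant.

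The study describes its own mice as male C57BL/6N. There were 4 libraries at each age, called young at 3, middle-aged at 12 and aged at 18 months. The sample titles number 4 tissue samples at each age, whereas the series description speaks of 3 replicates at each age, and this difference could not be resolved. That each library came from a different animal is therefore assumed, and n = 4 rests on the sample labels. No genotype or treatment separated the groups. The study's text describes stranded libraries made in house from young and old livers, and also a public mouse atlas as the source of its RNA-seq at 3 ages, so the preparation of these 12 libraries is uncertain, and whether polyadenylated RNA was selected is not given in the sources used here. All 5 hepatocyte markers were detected at every age, with a summed level between 64595 and 103803 CPM, the count scaled to a library total of 1000000 gene counts.

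Replication-dependent histone genes supply the bulk histones of newly copied chromatin. They lie in clusters, mostly lack introns, and are read mainly in S phase. Their classical mRNA ends in a short stem-loop instead of a poly(A) tail, and the stem-loop binding protein Slbp and the U7 small nuclear ribonucleoprotein make that end. Variant histone genes stand alone, mostly carry introns and poly(A) tails, and are read in resting cells as well. Their products are placed into chromatin by dedicated chaperones at any time of the cell cycle. Most hepatocytes of an adult liver rest outside the cell cycle.

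Of the replication-dependent members, 36 lay on chromosome 13 between positions 21735064 and 23764406 (GRCm38), 4 on chromosome 3, 2 on chromosome 11 and 1 on chromosome 6. They comprised 6 H1, 7 H2A, 11 H2B, 8 H3 and 11 H4 genes, and 41 of the 43 had a single exon. The variant members comprised 2 H1, 6 H2A and 2 H3 genes on 8 chromosomes, 4 of them with a single exon.

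The stem-loop was searched in the annotated transcripts, because it is the feature that separates the classical ends from polyadenylated ones. The motif was GGNNNTTNNNANNNCC, read on the transcript strand, with the first 6 and last 6 bases able to pair. It was found in 35 of 43 replication-dependent members (81.4%), in 1 of 10 variant members and in 0.659% of all 21866 protein-coding genes with transcripts. Within the last 150 bases alone it was found in 14 of the 43, in none of the 10 variant members and in 0.142% of all coding genes. The other 21 matches therefore lay farther upstream, in transcripts annotated beyond the stem-loop. A stem-loop beyond the annotated end of a transcript would be missed by this search. A poly(A) signal (AATAAA or ATTAAA in the last 50 bases) was found in 13 of 43 replication-dependent members, 9 of 10 variant members and 78.0% of all coding genes.

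The stem-loops of the 5 replication-dependent members with a match and a mean of at least 10 normalized counts, and that of the variant gene H2afx, follow, from the GENCODE M21 transcripts, 5′ to 3′ on the coding strand, with the paired stem in capitals, the loop between them in lower case and 5 flanking bases on each side.
Hist1h1c (chr13:23739507-23739532, plus strand): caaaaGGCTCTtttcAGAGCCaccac
Hist1h4h (chr13:23531453-23531478, plus strand): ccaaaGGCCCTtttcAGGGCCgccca
Hist1h4i (chr13:22040961-22040986, minus strand): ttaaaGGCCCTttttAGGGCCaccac
Hist2h3c2 (chr3:96238480-96238505, minus strand): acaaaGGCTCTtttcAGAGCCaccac
Hist1h2be: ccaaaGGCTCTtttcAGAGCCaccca
H2afx (chr9:44335235-44335260, plus strand): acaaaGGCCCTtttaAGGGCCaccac
The stem and loop of Hist1h1c were shared by 17 of the 35 replication-dependent members with a match. H2afx, which encodes the variant H2A.X that is phosphorylated at DNA breaks, was the variant member with a match. Its transcript is annotated for 822 bases beyond the stem-loop and carries a poly(A) signal.

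The level of the members was set by a few genes. Counts were divided by median-of-ratios size factors (normalized counts), and levels between genes were compared per kb of exon. Of the replication-dependent members, 7 had a mean of at least 10 normalized counts over the 12 livers, 26 had a mean under 1, and 27 never exceeded 3 counts in any liver. Of the variant members, 8 had a mean of at least 10. Gene counts per library ranged from 8124312 to 10527159, so that 3 counts, used as the floor of detection, stood for 2.62 to 3.82 normalized counts. Age differences of most replication-dependent members were therefore not detectable at this depth.

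Hist1h2bc, an H2B gene of the chromosome 13 cluster, had the highest level per kb of all members, at 1535 ± 162 normalized counts per kb (SD, n = 12 livers). It held 69.7% of the replication-dependent CPM and 25.5% of all histone CPM. It was followed by H1f0, the linker histone H1.0 of resting cells, at 670.4 ± 59.1 per kb, and by H3f3b, a gene of the replacement histone H3.3, at 485.8 ± 50.1 per kb. The ranges of these first 2 genes did not overlap with that of the next in order. Hist1h1c, the linker histone H1.2, followed at 407.4 ± 90.8 per kb, and its range overlapped with those of H3f3b above it and H2afz below it. H2afz and H2afv, which encode both H2A.Z proteins, had 253.3 ± 18.2 and 193.9 ± 24.4 per kb, with overlapping ranges.

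A lower tier began with H2afy, which encodes macroH2A1, at 72.7 ± 6.999 per kb, and its range did not reach that of H2afv. From H2afy downward each gene's range overlapped with that of the next, through H3f3a (57.1 ± 8.14), H2afx (53.5 ± 18.1), Hist1h4h (48.9 ± 27.3), Hist1h4i (42.7 ± 8.02) and H2afj (20.02 ± 5.53 per kb). Hist2h3c2 and Hist2h2be, an H3 and an H2B gene of the chromosome 3 cluster, followed at 9.87 ± 5.25 and 9.01 ± 2.38 per kb. H2afy2, which encodes macroH2A2, had 3.16 ± 2.41 per kb, and H1fx, the linker histone H1.10, had 1.56 ± 1.28 per kb.

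**Figure D1:**
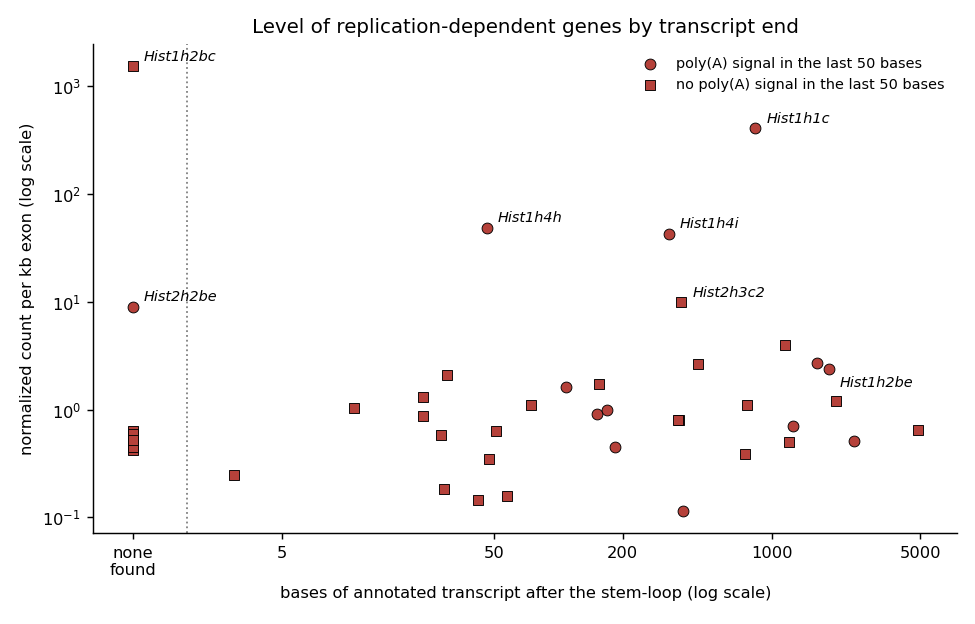
Level of the 43 replication-dependent members (vertical axis, mean normalized count per kb of exon over 12 livers, log scale) against the number of annotated transcript bases after the stem-loop (horizontal axis, log scale), with the 8 members lacking a match at the left of the dotted line. Circles mark transcripts with a poly(A) signal in the last 50 bases and squares those without. The 7 named genes are those with a mean of at least 10 normalized counts, and Hist1h4h is the only one among them whose transcript ends within 200 bases of the stem-loop.

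The levels were set beside the annotated transcript ends. Of the 17 replication-dependent members annotated for over 200 bases beyond the stem-loop, 4 had a mean of at least 10 normalized counts and 6 never exceeded 3 counts. Of the 18 annotated for 200 bases or fewer, 1 had a mean of at least 10, Hist1h4h with 46 bases, and 15 never exceeded 3 counts. Of the 8 without a match, Hist1h2bc and Hist2h2be had a mean of at least 10 and 6 never exceeded 3 counts. Among these 6, Hist1h4k, Hist1h2bn, Hist1h2ah and Hist1h3i have short annotated transcripts of 312, 381, 405 and 411 bases. A missing match in them may reflect where the annotation stops, so this group is not a type of transcript end. The median level per kb was 1.10 in the first of these groups, 0.887 in the second and 0.572 in the third. The median normalized count was 2.17, 0.451 and 0.287 in the same order, each under the floor of 3 counts. These counts are a description over annotated transcripts, which share libraries and parts of their sequence, and the part that RNA selection has in them was not tested.

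Reads of histone genes can be shared between near-identical copies. Over the replication-dependent members, the median share of 50-base stretches of a gene's transcripts that also occurred in another gene was 40.1%, against 4.17% over the variant members. The share was 8.54% for Hist1h1c, 30.1% for Hist1h2bc, 45.8% for Hist1h4h, 63.5% for Hist2h3c2 and 0 for Hist2h2be. Single-gene values of the H4 and H3 genes are uncertain to that extent. Among the genes at 0 in every liver the share ran from 0 for H1foo to 100% for Hist2h2aa2 and Hist2h3c1. How shared reads were counted is not given in the sources used here, so a count of 0 need not mean absent RNA. Hist1h2be and Hist1h1e also overlap each other on the same strand. Of the 10 variant members, 7 overlap an annotated gene on the opposite strand, namely H2afx, H2afj, H1f0, H2afy, H3f3a, H1fx and H2afy2, the last with Aifm2. H1fx also overlaps another annotated gene on the same strand. The strand setting of the counting is not given in the sources used here.

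Libraries differed in how many low genes they detected. Young replicate 3 and middle-aged replicate 1 had counts in 22284 and 19982 genes and in 27 replication-dependent members each, while the other 10 libraries had counts in 16361 to 17563 genes and in 17 to 24 of these members. Hist1h1d, a linker histone gene, stood at 20.1 normalized counts in young replicate 3 and at 0.894 to 7.94 elsewhere. The profile of the synthetic spike-in RNAs split the libraries into replicates 1 and 2 of each age (set A) and replicates 3 and 4 (set B), and over 31 spike-ins the lowest correlation inside a set was 0.997 and the highest across sets 0.925. Values within each set are given below where they change a result. Spike-ins also made up 3.50% to 10.6% of all counts in young, 1.59% to 2.73% in middle-aged and 1.87% to 3.51% in aged libraries. Every young library thus lay above every middle-aged one, and the part of this in the age differences was not tested.

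**Figure D2:**
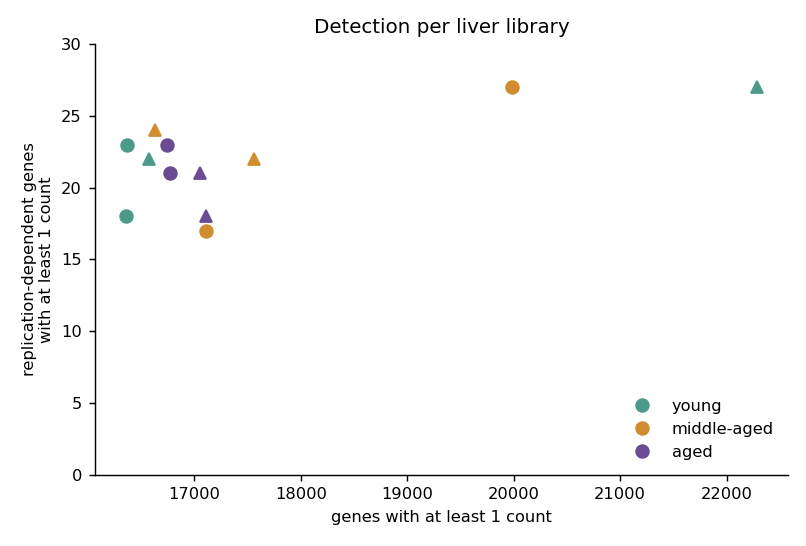
Number of replication-dependent members with at least 1 count (vertical axis) against the number of all genes with at least 1 count (horizontal axis) in the 12 liver libraries, colored by age, with circles for spike-in set A and triangles for set B. The 2 libraries at the right, 1 young and 1 middle-aged, detected 27 members each, and the age groups overlap.

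The summed level of each class was compared between ages first. The sum over variant genes was 453 ± 16.9 CPM at 3 months, 459 ± 8.99 at 12 months and 483 ± 26.0 at 18 months (SD, n = 4 each), and the ranges of the 3 ages overlapped. The sum over replication-dependent genes was 278 ± 28.6, 243 ± 27.5 and 285 ± 25.9 CPM in the same order, again with overlapping ranges. The middle-aged sum was thus lower on average, but middle-aged replicate 1 at 282 CPM exceeded the median of the young livers, 272 CPM. Within set A the log2 ratio of the summed level of middle-aged to young livers was -0.02 and within set B it was -0.35. The sums also depend on the scaling. With median-of-ratios normalized counts, the variant log2 ratios to young livers were -0.09 for middle-aged and -0.02 for aged livers, against 0.02 and 0.09 in CPM. Those of the replication-dependent sum were -0.30 and -0.07, against -0.19 and 0.04 in CPM.

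The sum of the other 42 replication-dependent genes, without Hist1h2bc, differed more. It was 79.0, 87.8, 101 and 98.8 CPM in young livers, 79.1, 51.4, 57.9 and 62.3 CPM in middle-aged livers, and 96.3, 88.0, 88.3 and 86.5 CPM in aged livers (replicates 1 to 4 in order). All aged livers were above all middle-aged livers, whereas middle-aged replicate 1 was level with young replicate 1. The log2 ratio of middle-aged to young livers was -0.55 for this sum, against -0.19 with Hist1h2bc. Hist1h1c alone made up 78.9% to 84.8% of this sum in the 12 livers, so that it mainly gives the level of that gene. Without Hist1h1c as well, the other 41 genes summed to 14.8 to 21.3 CPM in young, 9.21 to 13.8 CPM in middle-aged and 13.2 to 16.3 CPM in aged livers, with means of 17.0, 11.8 and 14.8 CPM (n = 4 each). The middle-aged range lay under the young range and overlapped with the aged range. The 36 members with a mean under 10 summed to 50.9 ± 21.5, 34.3 ± 9.81 and 34.7 ± 5.94 normalized counts, with overlapping ranges and a middle-aged level close to the aged one. In bulk tissue, fewer cells of a type and less RNA per cell cannot be told apart.

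**Figure D3:**
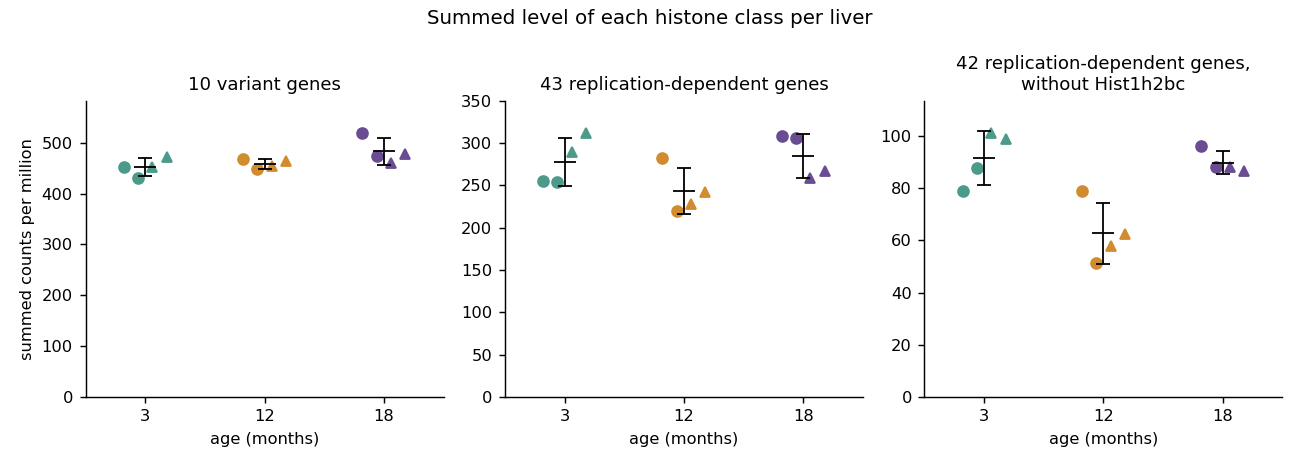
Summed CPM (vertical axes, from 0) of the variant genes, the replication-dependent genes and the replication-dependent genes without Hist1h2bc in each liver, by age in months (horizontal axes), with circles for spike-in set A, triangles for set B, and bars for mean and SD (n = 4). In the panel without Hist1h2bc the middle-aged livers lie between 51.4 and 79.1 CPM and the aged livers between 86.5 and 96.3 CPM.

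The ratio of replication-dependent to variant genes was likewise lowest in middle-aged livers. The ratio of the summed levels was 0.613 ± 0.0455 at 3 months, 0.530 ± 0.0501 at 12 months and 0.590 ± 0.0404 at 18 months. Its ranges overlapped, at 0.562 to 0.662, 0.491 to 0.602 and 0.558 to 0.645. Without Hist1h2bc the ratio was 0.203 ± 0.0208, 0.136 ± 0.0231 and 0.186 ± 0.00449, and the middle-aged range of 0.115 to 0.169 lay under the young range, which began at 0.174, and under the aged range, which began at 0.181. Without Hist1h1c as well it was 0.0375 ± 0.00631, 0.0257 ± 0.00373 and 0.0307 ± 0.00287, and the middle-aged range of 0.0205 to 0.0294 lay under the young range and overlapped with the aged range.

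Between young and middle-aged livers, 3 histone genes passed the test, all lower in middle-aged livers. These were Hist1h1c, Hist1h4h and H3f3b. They were 3 of the 13 members that had an adjusted p in the DESeq2 fit over all genes (Wald test, Benjamini-Hochberg adjustment), where 6.41% of all 11333 genes tested were called. By class they were 2 of 5 replication-dependent and 1 of 8 variant members.

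Hist1h1c encodes linker histone H1.2, which binds the DNA between nucleosomes. It had 631, 801, 771 and 783 normalized counts in young livers and 603, 399, 412 and 465 in middle-aged livers. The groups did not overlap, and middle-aged replicate 1 was the liver closest to the young range. The log2 fold change was -0.67 ± 0.13 (SE, adjusted p = 0.000127, DESeq2). Over 19 alternative settings the adjusted p ran from 1.71e-09 to 0.463, and the call was lost in 1 of them, within set A, where the log2 fold change was -0.51. Within set B it was -0.84 (DESeq2 adjusted p = 5.11e-05).

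Hist1h4h encodes histone H4 and had 29.7, 52.2, 39.1 and 24.4 normalized counts in young livers and 16.9, 13.5, 21.2 and 10.02 in middle-aged livers. The groups did not overlap. The log2 fold change was -1.23 ± 0.41 (DESeq2 adjusted p = 0.0488). This call sat at the threshold. It was lost in 10 of 19 alternatives and had no adjusted p in 5 more, edgeR among the former with an adjusted p of 0.0962, and the adjusted p ran from 0.0240 to 0.412.

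H3f3b, one of the genes for the replacement histone H3.3, had 1675, 1634, 1493 and 1617 normalized counts in young livers and 1257, 1379, 1288 and 1387 in middle-aged livers. All middle-aged livers were lower. The log2 fold change was -0.27 ± 0.08 (DESeq2 adjusted p = 0.0168), a smaller difference than that of Hist1h1c. The call was lost in 11 of 19 alternatives, with an adjusted p from 0.00304 to 0.665. Leaving out young replicate 1, 2 or 4 or middle-aged replicate 1 or 3 each ended it. H3f3a, the other gene for the same protein, had 210 ± 28.0 normalized counts in young and 203 ± 22.0 in middle-aged livers, and its log2 fold change of -0.05 had a 95% interval from -0.37 to 0.26.

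The other replication-dependent members with a mean of at least 10 did not pass the test. Hist1h2be, an H2B gene, had 10.6, 17.8, 10.7 and 12.7 normalized counts in young livers and 5.96, 3.59, 2.65 and 8.02 in middle-aged livers, a log2 fold change of -1.37 with a 95% interval from -2.35 to -0.39. DESeq2 gave it no adjusted p for this pair, because its level was under the filter. Hist2h3c2 likewise had no adjusted p, at 14.9 ± 3.27 and 6.18 ± 1.87 normalized counts and a log2 fold change of -1.28. Hist2h2be had 26.2 ± 4.93 and 17.6 ± 1.98 (DESeq2 adjusted p = 0.285). Hist1h2bc had 1851 ± 122 and 1669 ± 147, with a log2 fold change of -0.15 and an interval from -0.37 to 0.07. Hist1h4i, the second H4 gene, had 27.8 ± 7.59 and 30.7 ± 4.13.

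Over the 7 replication-dependent members with a mean of at least 10, the median log2 fold change of middle-aged against young livers was -0.67, beside 0.01 over all 11804 genes with such a mean, and 6 of the 7 values were negative. Every middle-aged liver was lower than every young liver in Hist1h1c, Hist1h4h, Hist1h2be, Hist2h3c2 and Hist2h2be, as in 7.75% of all genes of that level. Hist1h2be and Hist2h3c2, with means of 10.7 and 10.1, reached the minimum only through ages where they were high, so nothing is read from the number of these genes or from the median. At a mean of at least 50, which Hist1h2bc and Hist1h1c reached, the median was -0.41. Over the 8 variant members the median was -0.08, and in 2 of them, H3f3b and H2afj, every middle-aged liver was lower. Without young replicate 3 and middle-aged replicate 1, Hist1h1c was the only member called. Counts scaled to the library total instead moved the median of all genes by 0.11 for this pair, and the median of the variant members to 0.04, which lies -0.08 from that of all genes as before.

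**Figure D4:**
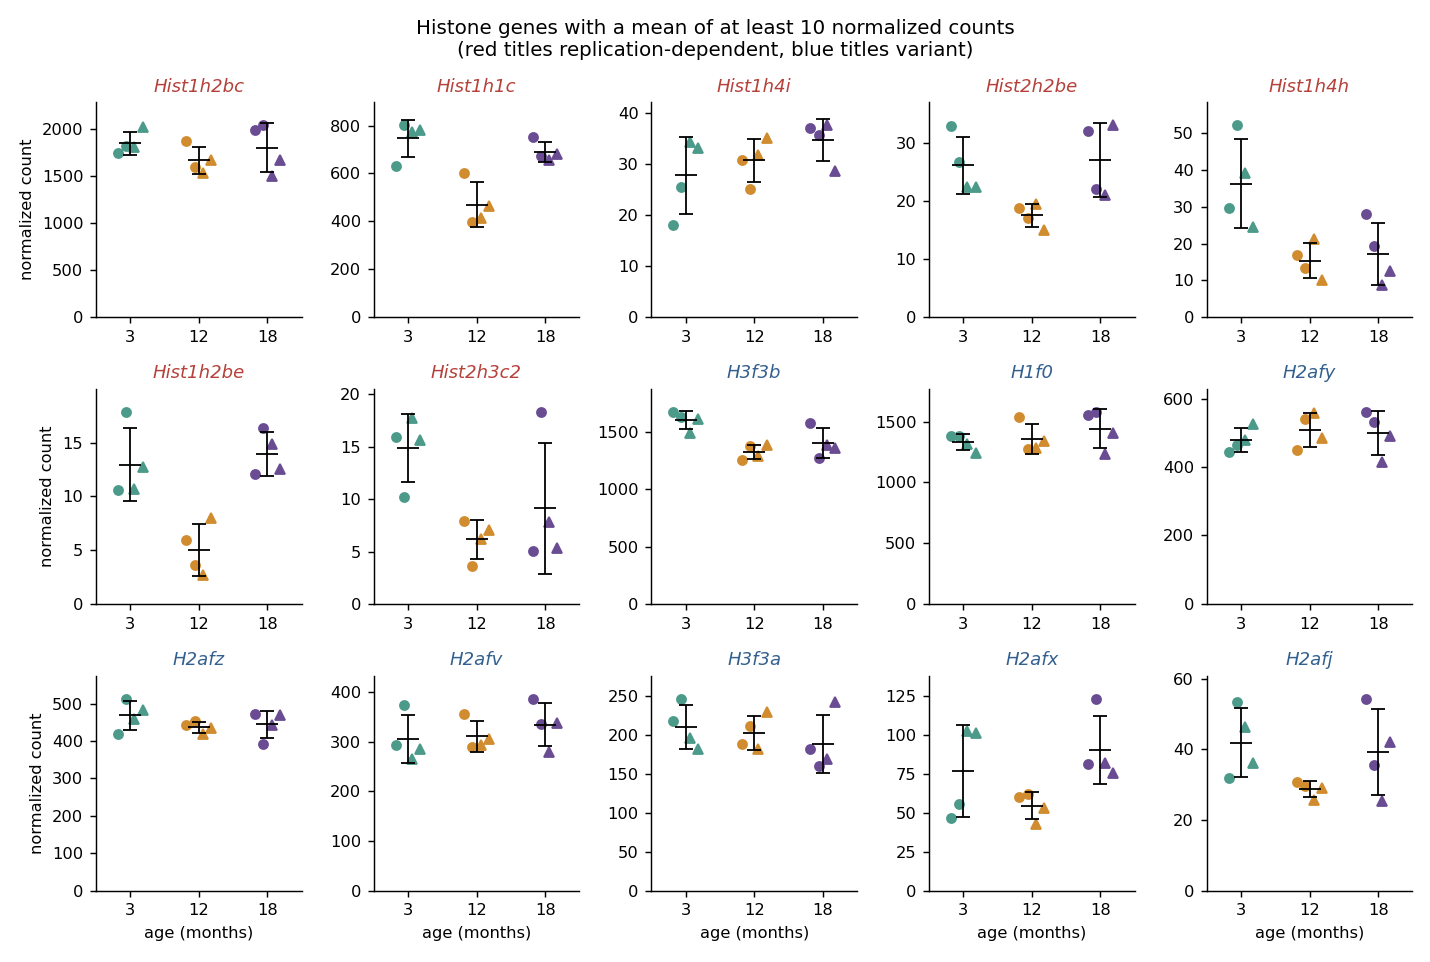
Normalized counts (vertical axes, from 0) of the 15 members with a mean of at least 10, by age in months (horizontal axes), with 1 point per liver, circles for spike-in set A, triangles for set B, and bars for mean and SD (n = 4). Hist1h1c falls from 631 to 801 in young livers to 399 to 603 in middle-aged livers and stands at 656 to 751 in aged livers, while H1f0, H2afy, H2afz and H2afv overlap at all ages.

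The remaining variant members overlapped or did not pass the test between young and middle-aged livers. H1f0 had 1330 ± 64.2 and 1359 ± 123 normalized counts, and its log2 fold change of 0.03 had a 95% interval from -0.16 to 0.22. H2afz had 469 ± 39.4 and 437 ± 14.2, H2afv 304 ± 48.1 and 311 ± 31.1, and H2afy 478 ± 34.9 and 508 ± 48.9. H2afj, a variant of H2A known from senescent cells, had 41.9 ± 9.79 and 28.8 ± 2.23 (log2 fold change -0.54, DESeq2 adjusted p = 0.266). H2afy2 had 3.67 ± 0.807 and 7.89 ± 7.97 normalized counts, the latter with 19.0 in replicate 4 and 0.993 in replicate 1. H1fx had 2.18 ± 2.09 and 1.89 ± 0.832, means under the floor.

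Between middle-aged and aged livers, 1 of 11 members with an adjusted p was called, against 1.14% of 10236 genes. It was Hist1h1c, which had 751, 673, 656 and 681 normalized counts in aged livers, above all 4 middle-aged livers. The log2 fold change of aged against middle-aged livers was 0.56 ± 0.13 (DESeq2 adjusted p = 0.00739). The call was lost in 6 of 19 alternatives, with an adjusted p from 2.10e-06 to 0.9999. They were edgeR (adjusted p = 0.150), set A alone, and the fits without middle-aged replicate 2 (0.0622), 3 (0.0851) or 4 (0.0800) or without aged replicate 4 (0.0512), and the log2 fold change lay between 0.49 and 0.70 in all 19.

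Other members had higher means in aged than in middle-aged livers and did not pass the test. Hist1h2be had 12.0, 16.4, 14.9 and 12.5 normalized counts in aged livers, all above the middle-aged livers, with a log2 fold change of 1.49, a 95% interval from 0.53 to 2.44 and no adjusted p. Hist2h2be had 27.1 ± 6.40 in aged livers and a log2 fold change of 0.62. H2afx had 60.6, 61.9, 43.3 and 53.1 in middle-aged livers and 81.3, 123, 82.1 and 76.0 in aged livers, and the log2 fold change was 0.73 ± 0.28 (adjusted p = 0.250, DESeq2). In young livers H2afx stood at 46.7 and 56.0 in set A and at 103 and 102 in set B. Its young range thus overlapped with those of both other ages.

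For aged against middle-aged livers the median log2 fold change was 0.56 over the 7 replication-dependent members, 0.08 over the 8 variant members and 0.00 over all genes, and all 7 of the former values were positive. Every aged liver was higher than every middle-aged liver in Hist1h1c, Hist1h2be and Hist2h2be and in the variant member H2afx, as in 3.08% of all genes. Hist1h2be reached the minimum mean only through young and aged livers, so nothing is read from this number either. Within set B the median of the replication-dependent members was 0.01 and within set A 0.60, and without aged replicate 2 it was 0.17.

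Between young and aged livers, no member passed the test, where 3.58% of 13527 genes did. By DESeq2 2 of the 53 members had an unadjusted p under 0.05, beside 2252 of all 28449 genes, and edgeR called no member. Hist1h4h had 28.1, 19.3, 8.74 and 12.5 normalized counts in aged livers, lower than in young livers except in replicate 1, which overlapped with young replicate 4. Its log2 fold change was -1.09 ± 0.41 (DESeq2 adjusted p = 0.122). H3f3b had 1585, 1279, 1389 and 1367, and its fold change was -0.19 ± 0.08 on the log2 scale (adjusted p = 0.171, DESeq2). Both were called when aged replicate 1 was left out, with adjusted p = 0.0155 for Hist1h4h and 0.00739 for H3f3b.

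H2afy2 had 3.18, 3.82, 4.74 and 2.93 normalized counts in young livers and 11.04, 4.82, 6.99 and 13.4 in aged livers. Every aged liver was above every young liver, by a narrow margin at these low counts, and its log2 fold change was 1.31 ± 0.78 (adjusted p = 0.430, DESeq2). H2afy2 overlaps Aifm2 on the opposite strand, so reads of Aifm2 may be among these counts.

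Hist1h1c overlapped between young and aged livers, with a log2 fold change of -0.11 and a 95% interval from -0.37 to 0.15. For the following variant members with high levels, the 95% intervals between young and aged livers lay within -0.47 to 0.41. H1f0 had a log2 fold change of 0.12 (-0.07 to 0.31), H2afz -0.08 (-0.26 to 0.11), H2afv 0.14 (-0.14 to 0.41), H2afy 0.06 (-0.17 to 0.29) and H3f3a -0.16 (-0.47 to 0.16). Hist1h2bc had -0.04 (-0.26 to 0.18), and over 19 alternatives its log2 fold change ran from -0.28 to 0.18 without a call. The median log2 fold change was -0.04 over replication-dependent members, -0.01 over variant members and 0.01 over all genes, and within set B the first was -0.22.

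**Figure D5:**
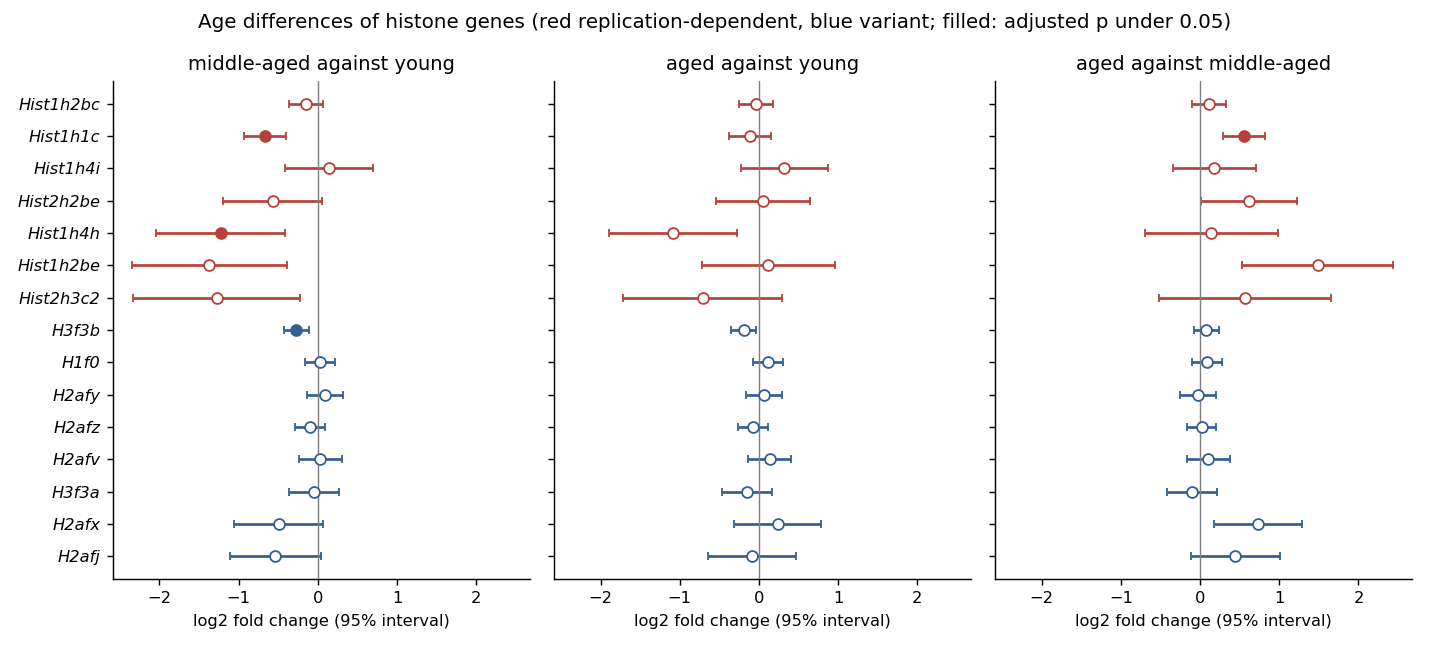
Log2 fold changes with 95% intervals (horizontal axes) of the 15 members with a mean of at least 10 normalized counts, for 3 pairs of ages, replication-dependent genes in red and variant genes in blue, filled where the DESeq2 adjusted p is under 0.05. Filled points appear for Hist1h1c, Hist1h4h and H3f3b in middle-aged against young livers and for Hist1h1c in aged against middle-aged livers.

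Over the 3 ages together, the likelihood ratio test called 2 of 17 members, Hist1h1c (DESeq2 adjusted p = 0.000144) and H3f3b (adjusted p = 0.0328), against 6.96% of 12430 genes. Hist1h1c was called in all 20 alternatives of this test, with an adjusted p of at most 0.0299. H3f3b was called in 4 of 20. Hist1h4h (DESeq2 adjusted p = 0.0520) and Hist1h2be (0.0570) lay just outside the threshold, and both were called when aged replicate 1 was left out or when genes needed at least 10 counts in at least 4 livers.

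The genes that make and end histone mRNA were counted next. Of the 17 genes of this list, 16 had an adjusted p for each pair of ages, and none was called by DESeq2 or edgeR, with at most 1 at an unadjusted p under 0.05. Of all 28449 genes, 2645 were at such a p for middle-aged against young livers in DESeq2. For aged against young livers there were 2252, and for aged against middle-aged livers 1225. Slbp, which binds the stem-loop, had 87.8, 92.6 and 101 mean normalized counts in young, middle-aged and aged livers, and its log2 fold change between young and middle-aged livers was 0.08 ± 0.18. Npat, the coactivator that switches on histone clusters in S phase, had 50.03, 48.6 and 44.3. Lsm10 and Lsm11, subunits of the U7 particle, had 88.4, 110 and 103, and 29.99, 29.95 and 35.7. Zfp473, another U7 partner, was at 0 in all young livers and at a mean of at most 0.710 later, under the floor at every age.

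Histone chaperones and exchange complexes gave no calls either. Of 23 chaperone genes, 20 to 23 had an adjusted p for a pair of ages, and of 22 genes of the H2A.Z and H2A exchange complexes 21 to 22. None was called by DESeq2 or edgeR, with at most 5 and 1 at an unadjusted p under 0.05. Hira, which places H3.3 at active genes, had 38.8, 30.8 and 41.5 mean normalized counts in young, middle-aged and aged livers. Daxx, which places H3.3 at repeats, had 158, 117 and 129 (log2 fold change of middle-aged against young livers -0.43, DESeq2 adjusted p = 0.0754). Asf1a had 69.6, 68.0 and 71.1 and Asf1b 2.54, 4.22 and 3.52. Chaf1a and Chaf1b, subunits of the assembly factor that follows the replication fork, had 18.1, 15.1 and 11.03, and 13.2, 12.7 and 6.96.

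Cell cycle genes were compared because replication-dependent histone genes are read in S phase. Of 24 S phase genes, 17 had an adjusted p for middle-aged against young, 22 for aged against young and 15 for aged against middle-aged livers, and none was called by DESeq2 or edgeR, with 0, 4 and 1 at an unadjusted p under 0.05 in DESeq2. Of 20 genes of mitosis, 4 had an adjusted p for middle-aged against young and 2 for aged against middle-aged livers, with none called by either tool and 2 and 1 at an unadjusted p under 0.05. Of the 16 with an adjusted p for aged against young livers, 2 were called, beside 3.58% of all genes, and Cdk1 fell by 2.497 on the log2 scale (DESeq2 adjusted p = 0.000656) and Ube2c fell by 2.67 (adjusted p = 0.0457), the latter called neither by edgeR nor without independent filtering. Cdk1, the kinase that starts mitosis, had 20.9 ± 4.16, 7.74 ± 3.44 and 3.64 ± 1.93 normalized counts in young, middle-aged and aged livers. Mki67 had 27.4, 19.8 and 16.2, and Top2a 25.7, 14.05 and 10.5.

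Markers of other liver cells were set beside the histone genes. The 5 Kupffer cell and macrophage genes were all detected, with a summed level of 193 to 303 CPM at 3 months, 175 to 227 at 12 months and 229 to 275 at 18 months, and a median log2 fold change of -0.39 from young to middle-aged and 0.23 from middle-aged to aged livers, with none called by DESeq2 or edgeR and 1 gene at an unadjusted p under 0.05 in the first pair. The 5 erythroid genes ranged from 2242 to 7221, 1302 to 5060 and 970 to 2097 CPM, and Alas2 and Hbb-bs fell between young and aged livers (DESeq2 adjusted p = 0.0255 and 0.0498), though neither was called by edgeR or without independent filtering. The 5 neutrophil genes summed to at most 23.1 CPM and had no adjusted p in DESeq2 for any pair, and the 2 of them with a mean of at least 10 had a median log2 fold change of -2.56 for middle-aged against young and -1.53 for aged against young livers. The T and NK cell genes summed to at most 4.92 CPM, and 4 of 5 had an adjusted p, for aged against young livers only, with none called and 2 at an unadjusted p under 0.05. The B cell genes summed to at most 35.3 CPM, with 2 to 4 of 4 tested, none called and none at an unadjusted p under 0.05. The endothelial and stellate genes gave no call by either tool, with 0 to 2 at an unadjusted p under 0.05. Of the cholangiocyte genes only Sox9 was called by DESeq2, and not by edgeR, higher in aged livers against young (log2 fold change 0.86, adjusted p = 0.0169) and against middle-aged livers (0.95, adjusted p = 0.0117). The list did not rise with it, since the median over its 4 genes with a mean of at least 10 was -0.19 and -0.10 for these pairs. Its summed level overlapped between ages, at 28.2 to 35.9, 13.0 to 48.4 and 24.1 to 46.5 CPM in young, middle-aged and aged livers. No marker of the macrophage, erythroid, B cell or T and NK cell lists was at 0 at any age, and their part in the histone values was not tested.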

How the data were processed

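The authors deposited 1 table of whole-number read counts per gene, not normalized, for 12 livers with 53465 genes and 92 spike-in RNAs; all 12 columns were matched to samples by title. The submitters' processing notes name STAR 2.5.2b, SAMtools 1.9, featureCounts, R 3.6.3, edgeR 3.28.1 and DESeq2 1.26.0 and the builds mm10 and GRCm38, without their settings. Symbols, positions, exon lengths and transcript sequences came from GENCODE M21 (GRCm38), which held 53360 of the identifiers.

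The 28449 genes with at least 1 count entered 1 fit of all 12 samples in DESeq2 1.42.0 (R 4.3.3), the study's own tool, with age group as its term, size factors by median of ratios, default independent filtering, Wald tests for pairs of ages and a likelihood ratio test for the 3 ages, with an adjusted p threshold of 0.05. Fold changes are unshrunken. Spike-ins entered no test. Class medians used members with a mean of at least 10 normalized counts; class sums used counts scaled to 1000000 gene counts per library, and no class was tested as a whole. P-values measure the spread between these samples. Floors cover counting error only.

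Named members were every member called, the 6 of each class with the highest level per kb, members with a mean of at least 10 and a log2 fold change of at least 1 either way, and all variant genes; list genes were Slbp, Npat, Lsm10, Lsm11, Zfp473, Hira, Asf1a, Asf1b, Chaf1a, Chaf1b, Daxx, Mki67, Top2a and any called. The members and lists were chosen with earlier results of these data known. Alternatives were edgeR 4.0.16 quasi-likelihood tests, no independent filtering, a low-count filter (10 counts or more in 4 samples or more), TMM factors, total count scaling, a replicate block, the spike-in set as a covariate, each set alone, only the groups compared, and each library left out. EdgeR with that filter, an offset for exon length (lowess, span 0.3), leaving out both libraries with most genes detected, and a class sum without Hist1h2bc and Hist1h1c were chosen after seeing the data. The scripts were tested on simulated counts. All replicate pairs differed beyond sampling noise (chi-square of at least 11.2 per gene over 8888 genes). Replicate numbers followed the spike-in sets and showed no clear pairing of the samples otherwise. The study's other assays were not analysed here.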

Additional observations from a re-analysis of the deposited data

Results flagged for a closer look

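H2afx stood apart in 1 aged liver. Aged replicate 2 had 123 normalized counts and the other 3 aged livers 76.0 to 82.1, a gap of 0.870 of the group's range, above Dixon's 95% critical value for 4 samples. Of 60 groups of 4 livers examined (15 members and 5 class measures at 3 ages) this was the only one past that value, and chance alone would give about 3.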

How the results depend on the processing

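No named member changed direction in a comparison where it was called. Of 952 values of named members under alternatives, 922 brought no change of call, 28 lost a call and 2 gained one. Most of these values come from comparisons without a call, where none could be lost. For middle-aged against young livers the call held in 18 of 19 alternatives for Hist1h1c, 8 for H3f3b and 4 for Hist1h4h. For aged against middle-aged livers that of Hist1h1c held in 13 of 19. Where a member was not called with all libraries, a value without an adjusted p counts as no change. For H1fx in middle-aged against young livers this held for 16 of 17 alternatives. Another 5 values, all of Hist1h4h for middle-aged against young livers, where it was called, had no adjusted p and are not among the 952. Leaving out 1 library gave 1 to 2 members called for middle-aged against young (3 with all libraries), 0 to 2 for aged against young (0), 0 to 1 for aged against middle-aged (1) and 1 to 4 for the 3 ages together (2). For middle-aged against young the count was 1, Hist1h1c in each case, with edgeR, the exon length offset, both high-detection libraries left out or set B alone, and 0 in set A alone. For aged against middle-aged it was 0 with edgeR and in set A alone. For the 3 ages it was 1 with edgeR, TMM factors, no independent filtering, the length offset or both libraries left out, and 4 with at least 10 counts in at least 4 samples. EdgeR on the unfiltered table was not run for these results, since its test on simulated counts gave many false calls.

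With the replicate number as a block the members called were 1 for middle-aged against young, 1 for aged against young, 2 for aged against middle-aged and 1 for the 3 ages; Hist1h2ab, with at most 4 counts in any liver, was among those of both comparisons with aged livers. All genes called went from 727 to 385, 484 to 655, 117 to 426 and 865 to 451. The numbers showed no clear pairing of the samples. Correlations of same-numbered deviations ran from -0.30 to 0.16, and 4 of 24 matches of a sample to another age were best with its own number. These values cannot exclude a weak pairing.

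Class medians for replication-dependent members, middle-aged against young, were -0.84 in set B and -0.41 at a mean of at least 50, and -0.81 to -0.60 with 1 library left out. For aged against young they were -0.22 in set B and -0.10 to 0.04 with 1 left out. For aged against middle-aged they were 0.013 in set B, 0.33 at a mean of at least 50 and 0.17 to 0.65 with 1 left out. Variant medians under total count scaling were 0.038 and 0.11 for middle-aged and aged against young, and -0.052 to 0.11 with 1 left out for the latter. The log2 ratios of summed replication-dependent level were -0.55 without Hist1h2bc, -0.52 without it and Hist1h1c, -0.019 in set A and -0.35 in set B for middle-aged against young, 0.27 in set A, -0.20 in set B and -0.20 without both genes for aged against young, and 0.52 without Hist1h2bc for aged against middle-aged. Those of the variant sum for middle-aged against young were 0.019 as reported, -0.093 with median-of-ratios counts and 0.11 without H3f3b; for aged against young they were 0.094, -0.021 and 0.18, with 0.17 in set A and 0.020 in set B. The causes were not tested. Depth limits the 36 replication-dependent members with a mean under 10.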
